A study of Mus musculus with 4 samples.

Results

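ICOS WT regulatory T (Treg) cells of a lymph node under acute skin inflammation were compared with ICOS WT Treg cells of a resting spleen, gene by gene. All cells that the deposited tables mark as control were used: 1897 cells of the cervical draining lymph nodes, taken 1 day after oxazolone, and 4995 cells of the spleen at steady state, 6892 of the 14875 cells in the series. Both groups came from C57BL/6 mice of the ICOS WT genotype and were sorted as live CD4+ TCRβ+ YFP+ cells with a purity over 95%. The labels do not give the gene that drives YFP, the age or number of mice behind a library, or the oxazolone dose. No untreated lymph node and no oxazolone-treated spleen are among the samples, so tissue and challenge cannot be told apart in any value below. Each group was 1 library: there is no replicate check and no test, and the 95% intervals in brackets cover counting error only. The series also holds ICOS-deficient cells, labelled ICOS FC, of the same tissues and treatments (7983 cells), and their values stand beside the ICOS WT ones where stated.

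Treg cells hold other immune cells in check, and the factor Foxp3 maintains their identity. Oxazolone is a hapten: painted on skin, it modifies self proteins and provokes contact hypersensitivity, with T cell priming in the draining lymph nodes. ICOS, a relative of CD28, gives T cells a second signal; it is low on resting cells and appears on activation. Resting Treg cells carry homing and quiescence genes such as Klf2, Tcf7 and Lef1, whereas effector Treg cells carry activation receptors, tissue-homing chemokine receptors and suppressive mediators. Interferons act on almost every cell type and induce a broad set of antiviral and antigen-presentation genes.

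UMIs (unique molecular identifiers, each standing for 1 captured transcript) were added up per library, 27183614 in the spleen and 15045805 in the lymph node, and expressed as counts per 1000000 (CPM). Cells held 5044 UMIs at the median in the spleen and 6591 in the lymph node. A count of 0 allows up to 0.110 CPM in the spleen and 0.199 CPM in the lymph node, taking 3 counts as the limit. Ribosomal protein genes took 38.7% of spleen UMIs and 31.5% of lymph node UMIs. Cell barcodes shared by both libraries numbered 10. The T cell identity of the sort held in both: Cd3d was at 1152 and 1117 CPM (spleen before lymph node here and below), Cd3e at 591 and 716 and Cd4 at 148 and 179. Foxp3 was at 53.2 and 72.2 CPM, and a Foxp3 UMI was found in 20.8% [19.7, 21.9] and 37.3% [35.1, 39.5] of cells, or in 9.70% and 16.3% once every cell was thinned to 2000 UMIs. One of the 7 deposited spleen clusters goes against the Treg label: cluster 4, with 737 cells and 5492 UMIs per cell at the median, had Foxp3 at 2.2 CPM and a Foxp3 UMI in 0.54% of its thinned cells, whereas the other spleen clusters had it in 7.8% to 19.6%. In the lymph node, cluster 7 (66 cells) held Cd8a at 174 CPM, and cluster 6 (99 cells) had only 2022 UMIs per cell at the median. The overall counts, some list medians and the ratios of some genes are also given without these clusters.

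Far more genes were higher than lower in the lymph node. Of 7128 genes with a mean of at least 10 CPM over both libraries, 337 (4.73%) were at least 2-fold higher in the lymph node and 30 (0.421%) at least 2-fold lower. The median log2 ratio, lymph node over spleen, was 0.12, with 5% of genes under -0.41 and 5% over 0.95. At least 4-fold higher were 83 genes, and 1 gene, Ccl5, was at least 4-fold lower. With TMM factors the counts were 250 and 54 of 7123 genes, so that 82.2% of the genes past 2-fold were higher, against 91.8% here. With the library total taken without ribosomal and mitochondrial genes they were 307 and 76 (80.2% higher), but this also raised the number of genes past the minimum level to 8168, and 238 of the 307 were among the 337. That scaling moved all log2 ratios by -0.18, and TMM factors by -0.16, so a ratio close to 2-fold depends on it. Without spleen cluster 4 and lymph node clusters 6 and 7 the counts were 273 and 30.

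**Figure D1:**
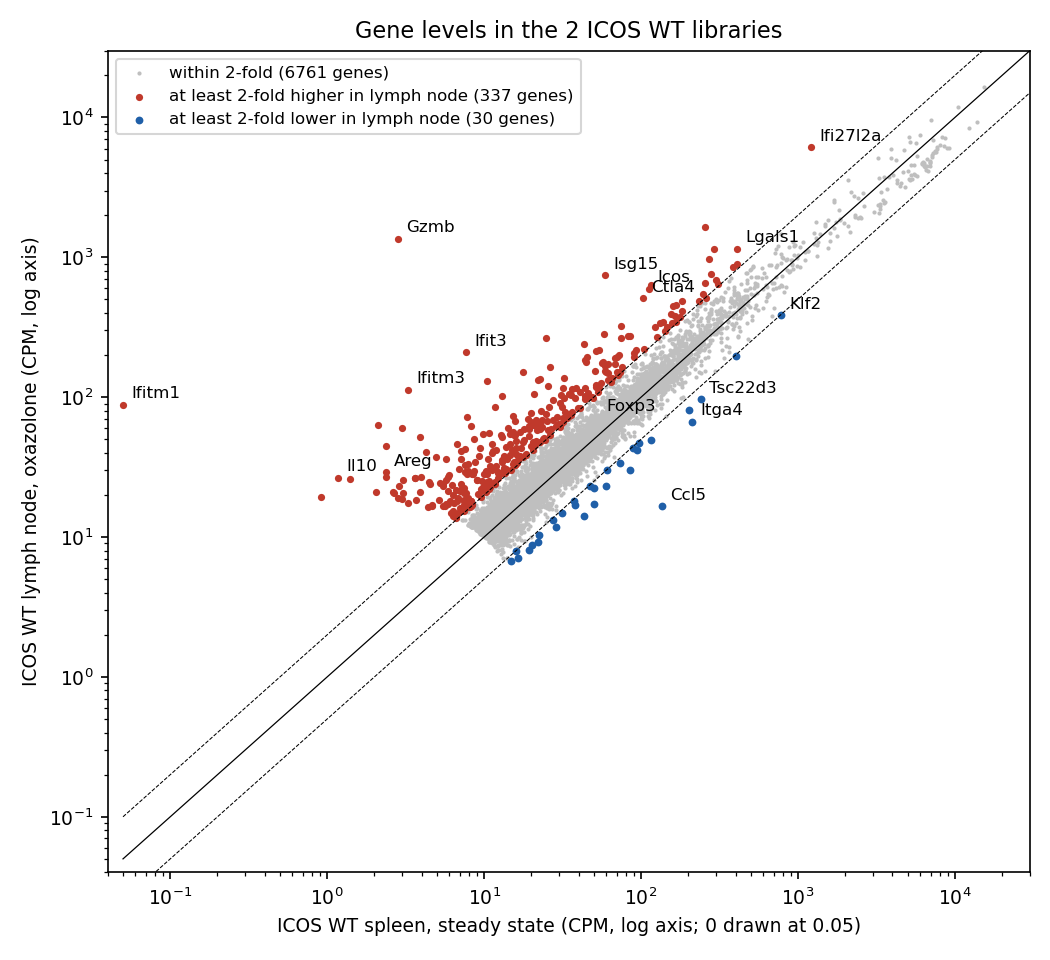
Levels of the 7128 measured genes in the ICOS WT spleen library (x axis) and the ICOS WT lymph node library (y axis), both in CPM on log axes, with solid and dashed lines at equality and at 2-fold. The 337 genes above the upper dashed line reach from Ifitm1, with 0 UMIs in the spleen, to Ifi27l2a at 6166 CPM, while the 30 genes below the lower line lie close to it apart from Ccl5.

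Genes of the type I interferon response were higher in the lymph node. Of 16 measured members of this list of 18, 14 reached 2-fold higher levels in the lymph node and 0 lower ones (median log2 ratio 2.47). Isg15, a ubiquitin-like modifier, had 1603 and 11257 UMIs (59.0 and 748 CPM), a log2 ratio of 3.67 [3.59, 3.74]. Ifit1 and Ifit3 encode RNA-binding antiviral proteins. Ifit1 was at 24.9 and 264 CPM (3.40 [3.29, 3.52]). Ifit3 was at 7.65 and 211 CPM (4.79 [4.58, 4.99]), 27.6-fold higher. Rsad2, which encodes the antiviral enzyme viperin, was at 3.02 and 60.1 CPM (4.32 [3.99, 4.66]). Mx1, a dynamin-like GTPase, was at 1.40 and 26.1 CPM (4.22 [3.74, 4.74]). Rsad2 and Mx1 were thus rare transcripts in the spleen. Among the transcription factors of the pathway, Irf7, which amplifies interferon induction, was at 21.9 and 132 CPM (2.59 [2.46, 2.73]). Stat2 was at 19.8 and 76.7 CPM (1.95 [1.80, 2.10]). Irf9, its DNA-binding partner, was at 69.0 and 117 CPM (0.76 [0.66, 0.85]) and did not reach 2-fold, nor did Ifit2 (19.2 and 37.4 CPM, 0.96 [0.79, 1.13]). Among abundant members, Ifi27l2a, an interferon-inducible gene of the Ifi27 family, was at 1215 and 6166 CPM (2.34 [2.33, 2.36]). Ly6a, the Sca-1 surface antigen, was at 255 and 1644 CPM (2.69 [2.65, 2.73]). Bst2 (tetherin), which holds budding virus at the cell surface, was at 115 and 633 CPM (2.46 [2.40, 2.52]). Ifit3 and Ifit3b are near-identical copies, so their reads may be split between them.

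GTPases that interferon-gamma induces, which attack the vacuoles of intracellular pathogens, were higher by a smaller factor. Of 16 members, 15 reached 2-fold upwards and 0 downwards, and the median log2 ratio was 1.63. Gbp2 was at 51.6 and 214 CPM (2.05 [1.96, 2.14]), Iigp1 at 53.7 and 217 CPM (2.01 [1.92, 2.10]), Irgm1 at 57.1 and 178 CPM (1.64 [1.55, 1.73]) and Igtp at 138 and 346 CPM (1.33 [1.27, 1.39]). The exception was Ifi47, at 230 and 446 CPM (0.96 [0.91, 1.01]). Gbp8 and Gbp9 (1.09 and 1.10) dropped under 2-fold with TMM factors. Counts of the Gbp genes, and of Tgtp1 and Tgtp2, are uncertain between neighbouring near-identical copies. MHC class I presentation genes were higher in smaller steps: the median was 0.66, beside 0.12 over all measured genes. Past 2-fold was 1 of 17 members, a share near the 4.73% of all measured genes. Intervals lay above equality for 15 of the 17, but the share of all measured genes with such intervals was not taken. Tapbp (tapasin), which loads peptide on class I molecules, was at 146 and 318 CPM (1.13 [1.06, 1.19], under 2-fold with TMM factors). Psmb9, an immunoproteasome subunit, was at 246 and 470 CPM (0.94 [0.89, 0.98]), and B2m, the class I light chain, at 2081 and 3562 CPM (0.78 [0.76, 0.79]).

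Interferon-activated factors bind short motifs in promoters, and 4 promoter stretches are shown because their genes carry the interferon block above. RefSeq promoter windows (GRCm38.p6, 300 bases, from 250 before to 50 after the start) were searched on both strands for the interferon-stimulated response element core (ISRE: GAAA, any 2 bases, GAAA) and the gamma-activated site core (GAS: TTC, any 3 bases, GAA). Each stretch below runs 5′ to 3′ along the gene, from 200 to 21 bases before the start. Capitals mark matches to either core, and the ISRE core reads TTTC, any 2 bases, TTTC when it lies on the other strand.
Isg15, chr4:156200839-156201018, minus strand: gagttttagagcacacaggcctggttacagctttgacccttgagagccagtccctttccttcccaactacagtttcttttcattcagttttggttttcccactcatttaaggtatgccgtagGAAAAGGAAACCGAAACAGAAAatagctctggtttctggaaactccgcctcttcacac
Ifit1, chr19:34640689-34640868, plus strand: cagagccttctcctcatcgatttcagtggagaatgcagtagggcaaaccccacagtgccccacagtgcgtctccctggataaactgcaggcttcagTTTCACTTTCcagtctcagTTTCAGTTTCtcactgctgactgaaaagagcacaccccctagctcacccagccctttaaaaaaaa
Ifit3, chr19:34583329-34583508, plus strand: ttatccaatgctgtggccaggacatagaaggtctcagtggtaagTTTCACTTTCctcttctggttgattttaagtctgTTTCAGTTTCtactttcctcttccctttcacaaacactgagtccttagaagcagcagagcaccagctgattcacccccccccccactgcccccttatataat
Igtp, chr11:58199356-58199535, plus strand: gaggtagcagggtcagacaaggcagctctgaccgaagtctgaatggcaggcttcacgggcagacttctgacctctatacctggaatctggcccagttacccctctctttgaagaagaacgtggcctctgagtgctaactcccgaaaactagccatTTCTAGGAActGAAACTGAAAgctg
Isg15 has 3 overlapping ISRE matches that begin 78, 72 and 66 bases before the start. Ifit1 has 2, at 104 and 85 bases, and Ifit3 has 2, at 156 and 122 bases. Igtp has 1 ISRE match at 34 bases and 1 GAS match at 45 bases, which do not overlap. An ISRE match was present in 6 of the 10 type I list genes with a promoter in the table and in 10 of 11 interferon-gamma GTPases. Among genes at least 2-fold higher in the lymph node it was present in 47 of 259 (18.1%), against 242 of 5699 measured genes (4.25%) and 1079 of all 27025 genes in the table (3.99%). It was found in 0 of the 23 lower genes with a promoter, which are too few to set against a share of 4.25%. A GAS match was present in 3 of the same 10 type I list genes and in 6 of the 11 interferon-gamma GTPases. Of the 259 higher genes 35 had one (13.5%), against 462 of the 5699 measured genes (8.11%) and 9.55% of all genes with a promoter. Among the 23 lower genes 1 had a GAS match. A match is a description of these letters and not a binding site.

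The interferon genes were higher across most cells, as counted, and not through a few. Free RNA in the droplets can add UMIs to many cells and was not estimated. Summed over all 18 type I list genes and thinned to 2000 UMIs, the median cell held 3 UMIs in the spleen and 20 in the lymph node. The 5th percentile of lymph node cells, 5 UMIs, was above the spleen median. Ifi27l2a and Ly6a make up much of that sum. Without them the medians were 1 and 6 UMIs, and 32.4% of spleen cells against 3.45% of lymph node cells held none. Interferon-gamma GTPases had medians of 1 and 5 UMIs. An Isg15 UMI was found in 9.91% [9.08, 10.8] of thinned spleen cells and 55.0% [52.7, 57.3] of thinned lymph node cells (19.6% and 77.6% unthinned). Across the 8 lymph node clusters the thinned share with Isg15 ran from 41.2% to 93.3%, and in 6 of the 7 spleen clusters from 5.25% to 16.01%. The remaining spleen cluster, number 6 with 47 cells, was itself led by interferon genes and had Isg15 in 76.1% of cells.

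**Figure D2:**
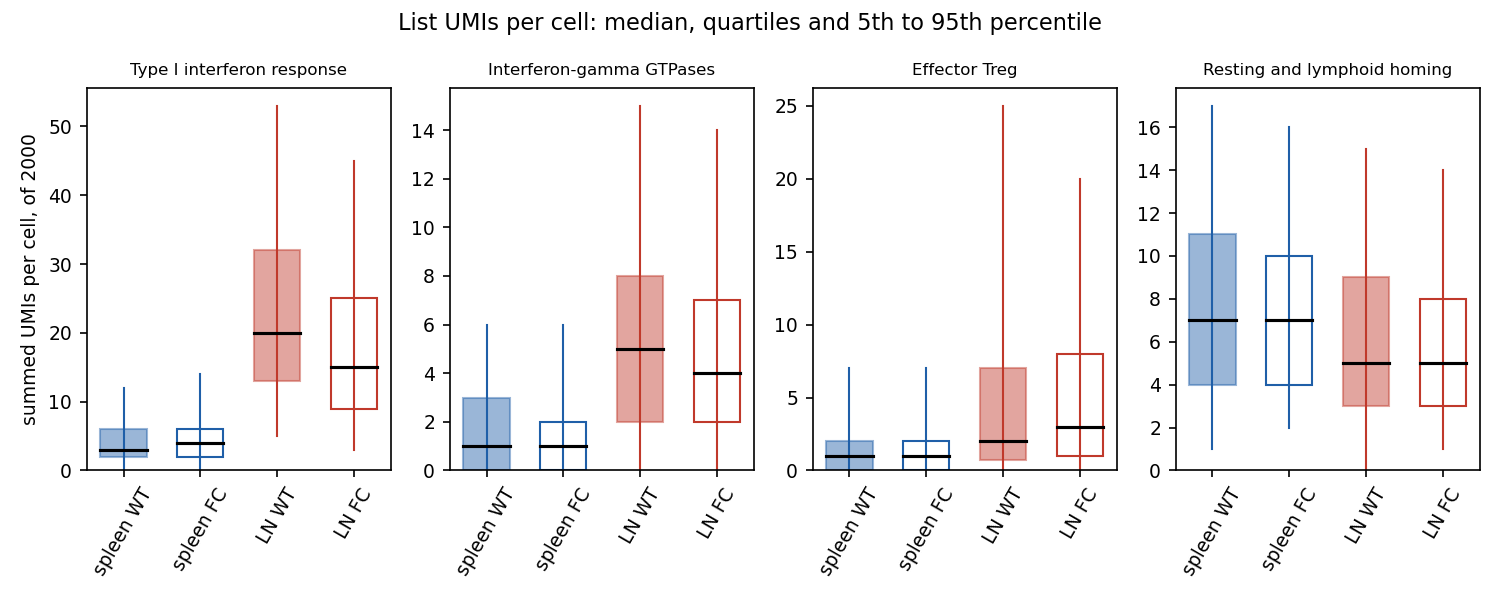
Summed UMIs per cell, of 2000 after thinning, for 4 gene lists (y axes) in the 4 libraries, with the median as a bar, quartiles as a box and the 5th to 95th percentile as a line; filled boxes are ICOS WT and open boxes ICOS FC. For the type I interferon list the ICOS WT median is 3 in the spleen and 20 in the lymph node, and for resting and homing genes 7 and 5.

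Gzmb had the widest ratio among the 7128 measured genes with UMIs in both libraries. It encodes granzyme B, a protease of cytotoxic granules that effector Treg cells can use against their targets, and lies on chromosome 14 at 56258838 to 56262260 (GRCm38, minus strand). There were 77 Gzmb UMIs in the spleen and 20493 in the lymph node, 2.83 and 1362 CPM, a log2 ratio of 8.91 [8.59, 9.25]. It was concentrated in some cells: 23.9% [22.03, 25.92] of lymph node cells had a Gzmb UMI, against 0.82% [0.59, 1.11] of spleen cells (18.3% and 0.31% thinned). The 5% of lymph node cells with most Gzmb UMIs held 79.3% of them, and 1 cell held 823. With every cell weighted equally the log2 ratio was 7.48. Lymph node cluster 0, which has effector Treg markers, and cluster 4, whose cells hold the most UMIs, carried 72.0% and 26.3% of the Gzmb UMIs. A Gzmb UMI was found in 46.9% of thinned cluster 0 cells and in 2.6% of thinned cluster 1 cells, which have resting markers, at 7182 and 6568 UMIs per cell. In the ICOS FC libraries Gzmb was at 3.19 and 480 CPM (7.23). Of the granule list, 2 of 7 measured granule genes reached 2-fold, the second being Nkg7 (51.6 and 123 CPM, 1.25 [1.15, 1.35], 0.87 without spleen cluster 4 and lymph node clusters 6 and 7 and 0.11 with like-named cluster pairs weighted equally). CD8 T and NK markers summed to 28.7 and 61.5 CPM over 10 genes, with Ncr1 at 0 in both. Lymph node cluster 7, with Cd8a at 174 CPM, held Gzmb at 273 CPM and 0.756% of the Gzmb UMIs. The Gzmb log2 ratio was 9.61 when only cells holding a Foxp3 UMI were kept. The part of cells with CD8 T or NK markers in the Gzmb ratio was not tested.

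Icos and the other effector Treg genes were higher together in the pooled cells. Of 14 members, 11 reached 2-fold upwards and 0 downwards, and the median was 1.46. Icos (chromosome 1, 60977927 to 61000320) had 3040 and 9005 UMIs, 112 and 599 CPM, a log2 ratio of 2.42 [2.36, 2.48]. An Icos UMI was found in 17.2% and 40.9% of thinned cells, and in 74.2% of cells in lymph node cluster 0 against 10.8% in cluster 1. Itgae, the αE integrin (CD103) that binds E-cadherin on epithelium, was at 13.1 and 103 CPM (2.98 [2.81, 3.15]). Tnfrsf9 (4-1BB), an activation-induced receptor, was at 57.8 and 285 CPM (2.30 [2.22, 2.39]). The transcription factors of the effector state were also higher. Prdm1 (Blimp-1) was at 8.79 and 34.2 CPM (1.96 [1.74, 2.19]), Irf4 at 11.3 and 40.9 CPM (1.85 [1.65, 2.06]), and Maf at 166 and 458 CPM (1.46 [1.41, 1.51]). The level of Batf, an AP-1 partner of Irf4, was 68.1 and 173 CPM (1.35 [1.26, 1.44]). Id2 and Ikzf3 (1.05 and 1.00) lay at the edge and were under 2-fold with TMM factors. Rora (44.4 and 53.1 CPM, 0.26) and Cd44 (34.0 and 64.1 CPM, 0.91) were between, and the exhaustion-linked receptor gene Pdcd1 (PD-1) had 46.8 and 38.9 CPM (-0.27 [-0.41, -0.13]). The list median changed with the clusters used. That alternative keeps only the 3 like-named cluster pairs described below, weighted equally. It pairs spleen cluster 1, with 12 effector markers over 1.5-fold, with lymph node cluster 2, which had 0, so the part of cluster mix alone was not tested. With this weighting the list median was 0.60, and several members came under 2-fold: Irf4 at 0.61, Batf at 0.58, Maf at 0.51 and Klrg1 at 0.41 (1.46 pooled). Icos then had 1.45, Itgae 2.16 and Gzmb 7.77.

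Suppressive mediators were mostly higher, but some through very few cells. Of 12 members, 8 were at least 2-fold higher and 0 lower (median 1.75, or 0.92 with cluster pairs weighted equally). Ctla4, which strips costimulatory ligands from antigen-presenting cells, was at 103 and 510 CPM (2.31 [2.25, 2.37]). Lgals1, the lectin galectin-1, was at 407 and 1154 CPM (1.504 [1.47, 1.54]). Lag3, an inhibitory receptor for MHC class II, was at 15.3 and 56.8 CPM (1.90 [1.73, 2.07]). Under that weighting Ctla4 had 1.57, Lgals1 0.85 and Lag3 0.74. Areg encodes the tissue-repair ligand amphiregulin. It had 64 and 438 UMIs, 2.35 and 29.1 CPM (3.63 [3.25, 4.03]), in 0.88% and 5.85% of cells. Il10, the anti-inflammatory cytokine, had 32 and 400 UMIs, 1.18 and 26.6 CPM (4.50 [3.98, 5.06]), in 0.28% and 3.69% of cells. One lymph node cell held 218 of the 400 Il10 UMIs, and without lymph node cluster 4 the log2 ratio was 3.31. Tgfb1 (115 and 140 CPM, 0.28) and Itgb8, part of the integrin that activates TGF-beta (14.3 and 14.8 CPM, 0.05), differed little.

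Some receptors of the TNF family and for chemokines were also higher. Tnfrsf4 (OX40) was at 273 and 980 CPM (1.85 [1.81, 1.89]), Tnfrsf1b (TNFR2) at 35.6 and 104 CPM (1.55 [1.43, 1.67]) and Tnfrsf18 (GITR) at 249 and 551 CPM (1.15 [1.10, 1.19], 0.99 with TMM factors). These are costimulatory receptors of Treg cells, and with Tnfrsf9 they made 4 of 9 measured family members past 2-fold. Cd27 (358 and 346 CPM, -0.05) and Fas (49.3 and 42.3 CPM, -0.22) were not among them. Among 12 chemokine and egress receptors 6 were higher and 1 lower. Ccr2 was at 22.6 and 136 CPM (2.59 [2.45, 2.72]), Cxcr6 at 8.68 and 50.1 CPM (2.53 [2.32, 2.75]) and Ccr4 at 11.3 and 40.2 CPM (1.83 [1.63, 2.03]). Ccr6 was at 8.98 and 25.4 CPM, 2.83-fold higher, and Gpr183 at 126 and 268 CPM (1.08 [1.02, 1.15], 0.92 with TMM factors). Cxcr4, the receptor for a stromal chemokine of bone marrow and lymphoid tissue, was at 73.2 and 34.0 CPM (-1.11 [-1.25, -0.96], or -0.70 with every cell weighted equally). With the cluster pairs weighted equally, Tnfrsf1b (0.85), Tnfrsf18 (0.87), Ccr4 (0.82) and Gpr183 (0.81) came under 2-fold, and Tnfrsf4 had 1.196, Ccr2 1.66 and Cxcr6 1.45. Ccr7 and S1pr1, which govern entry to and exit from lymph nodes, were at 167 and 133 CPM (-0.33) and at 208 and 185 CPM (-0.17).

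**Figure D3:**
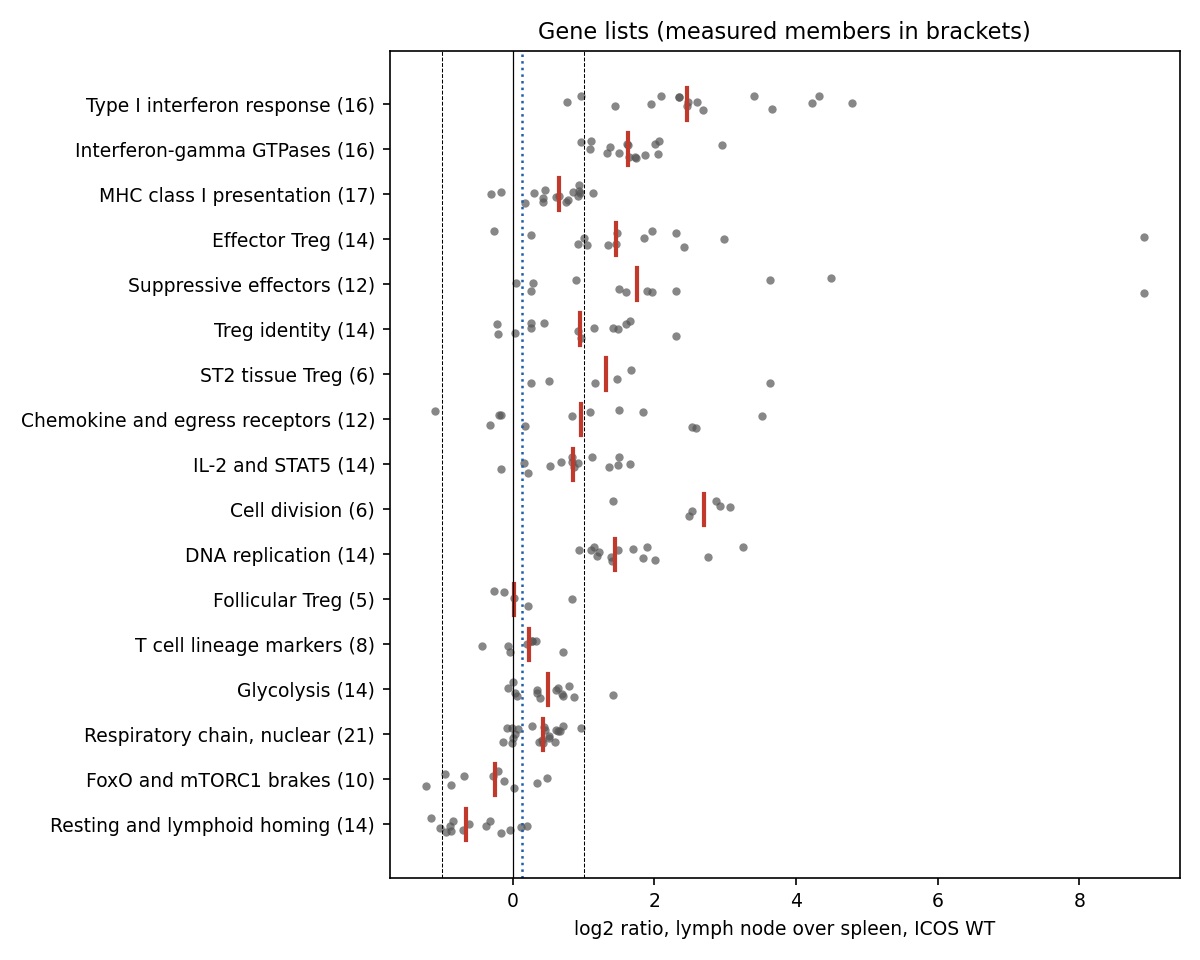
Log2 ratios, lymph node over spleen in the ICOS WT libraries (x axis), of the measured members of 17 gene lists (rows), with each list's median in red, the median of all measured genes dotted in blue and 2-fold lines dashed. The type I interferon list lies highest among the drawn lists with more than 10 measured members, at 2.47, follicular Treg genes lie at 0.02, and resting and homing genes lie at -0.66.

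Treg identity genes were higher in part. Foxp3 differed by 1.36-fold (log2 ratio 0.44 [0.33, 0.56]), and the related factors Ikzf2 (Helios; 722 and 859 CPM, 0.25) and Ikzf4 (74.97 and 89.2 CPM, 0.25) by less. Past 2-fold were 6 of 14 members and lower 0. Besides Ctla4 and Tnfrsf18 these were Socs2, a feedback inhibitor of cytokine signalling (36.2 and 114 CPM, 1.65), Entpd1, the ectonucleotidase CD39 (7.43 and 22.6 CPM, 1.60), Il2ra, the high-affinity IL-2 receptor chain (161 and 448 CPM, 1.48 [1.42, 1.53], or 0.99 in cells with a Foxp3 UMI), and Capg, an actin-capping protein (182 and 487 CPM, 1.42). Of 14 genes of the IL-2 and STAT5 pathway, 5 were past 2-fold, among them the feedback genes Socs3 (61.6 and 174 CPM, 1.49) and Socs1 (132 and 338 CPM, 1.36). Genes of the ST2+ tissue Treg program included Il1rl1, which encodes the IL-33 receptor ST2, at 13.9 and 44.2 CPM (1.67 [1.49, 1.86], or 0.86 with cluster pairs weighted equally). Of 5 measured follicular Treg genes 0 reached 2-fold, with Cxcr5, the B cell follicle homing receptor, at 10.9 and 19.4 CPM (0.83 [0.60, 1.07]).

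Of the 30 lower genes, Ccl5 had the widest ratio. Ccl5, a chemokine for effector lymphocytes (chromosome 11, 83525778 to 83530518), had 3704 and 251 UMIs, 136 and 16.7 CPM, a log2 ratio of -3.03 [-3.22, -2.85] or 8.17-fold. It was found in 8.65% of spleen cells and 4.16% of lymph node cells, and spleen clusters 2 and 1 held 63.3% and 27.5% of its spleen UMIs. Itga4, the α4 integrin that binds VCAM-1, was at 210 and 67.0 CPM (-1.65 [-1.75, -1.55]), in 51.2% and 26.9% of cells. Of 14 resting and homing genes, 2 were at least 2-fold lower and 0 higher in the pooled cells, with a median of -0.66 and 11 intervals below equality. The direction was not the same in all cluster pairs described below. Medians were -0.98 in the effector, 0.56 in the follicular and -0.53 in the resting pair. In that order 7, 0 and 2 members were past 2-fold downwards, and 1, 6 and 1 upwards. With the pairs weighted equally the median was -0.29. Klf2, a quiescence factor that sustains homing receptors, was at 783 and 384 CPM (-1.03 [-1.07, -0.98]). That ratio lay just past 2-fold and came to -0.90 in thinned cells. Dapl1 was at 94.4 and 42.3 CPM (-1.16 [-1.29, -1.03]), but at -0.16 without spleen cluster 4 and lymph node clusters 6 and 7. Lef1 (294 and 153 CPM, -0.94), Bcl2, a survival protein (483 and 261 CPM, -0.89), Tcf7 (241 and 148 CPM, -0.71) and Il7r (417 and 272 CPM, -0.62) were lower by less than 2-fold. Also past 2-fold were genes outside that list. Tsc22d3 (GILZ), a glucocorticoid-induced inhibitor, was at 240 and 96.8 CPM (-1.31 [-1.39, -1.23]), and Pik3ip1, an inhibitor of PI3 kinase, at 116 and 49.2 CPM (-1.23 [-1.35, -1.11], or -0.90 in thinned cells). Bbc3, the pro-death protein PUMA, was at 28.7 and 11.8 CPM (-1.28 [-1.53, -1.05]).

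Proliferation genes were higher through a small set of cells. Of 6 measured cell division genes 6, and of 14 DNA replication genes 13, were at least 2-fold higher, with medians of 2.70 and 1.45. Each list has 18 genes, and the others lay under the level filter. Mki67 and Rrm2, under 10 CPM in the spleen, passed it through their lymph node level, so the counts partly follow from the filter. Summed over all 18 genes, cell division was at 95.8 and 477 CPM and DNA replication at 314 and 846 CPM. Mki67 was at 7.14 and 41.2 CPM (2.53 [2.29, 2.77]) in 2.54% and 10.3% of cells. Top2a, which untangles replicated DNA, was at 11.7 and 85.3 CPM (2.87 [2.69, 3.05]) in 4.50% and 13.4%. Rrm2, which makes deoxynucleotides, was at 4.27 and 40.6 CPM (3.25 [2.96, 3.55]). With cells holding a Mki67 or Top2a UMI left out, the DNA replication median came to 0.28 and 7 genes, among them Birc5 and Stmn1, turned to negative ratios. The values also depend on depth: in thinned cells the medians were 1.68 and 0.69, and Stmn1 (0.35), Mcm4 (0.55), Mcm6 (0.50), Mcm7 (0.66), Rrm1 (0.71), Tyms (0.23), Dut (0.27) and Gins2 (0.59) came under 2-fold, while Rrm2 had 2.08. In the effector and follicular Treg-like cluster pairs described below, 6 of 6 cell division genes were past 2-fold upwards (medians 1.48 and 2.51). Of 14 DNA replication genes 11 and 10 were (medians 1.34 and 1.35). In the resting Treg-like pair, 2 cell division genes were past 2-fold upwards and 2 downwards (median 0.04), and 2 of 14 DNA replication genes upwards (median 0.50). The median cell of either library held 0 UMIs of these lists. Metabolic lists are set beside the median of all genes, 0.12: glycolysis had 1 of 14 members past 2-fold (Tpi1, 40.9 and 109 CPM, 1.42, or 0.87 in thinned cells; median 0.50), the respiratory chain 0 of 21 (0.42) and sterol synthesis 0 of 17 (0.11). Ribosome biogenesis had 1 of 18 (Odc1, the first enzyme of polyamine synthesis, 58.6 and 154 CPM, 1.39; median 0.42, or -0.27 without lymph node cluster 4).

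The difference was then taken inside clusters of like name, to compare cells of similar marker state. Deposited clusters were paired by their markers: effector Treg-like (spleen cluster 2, 870 cells; lymph node cluster 0, 525 cells), follicular Treg-like (855 and 391 cells) and resting Treg-like (535 and 422 cells). Clusters were made in each tissue separately and the names rest on markers chosen here, so like-named clusters need not be the same state. Those markers include Icos, Itgae, Gzmb, Tnfrsf9, Tnfrsf4, Klf2, Lef1 and Tcf7, and further members of the effector and resting lists. Ratios of these genes inside the pairs are not independent of the pairing and are given as description only. Spleen cluster 1 of the follicular pair also had 12 effector markers over 1.5-fold against the rest of its tissue. Of the 337 genes higher in the pooled cells, 270 were past 2-fold in the effector pair, 140 in the follicular pair and 180 in the resting pair. In each pair 5.33%, 2.60% and 3.06% of all measured genes were past 2-fold upwards. All 3 pairs gave a higher level for 235 of the 337, and 91 were past 2-fold in all 3. The 337 genes were called on sums that include the cells of these clusters, so this agreement is partly fixed in advance. The share of all measured genes that were higher in all 3 pairs was not taken.

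Interferon genes were higher in each of the pairs. The type I list had medians of 2.55, 2.43 and 2.34 in the effector, follicular and resting pairs, with 15, 15 and 14 of 16 members past 2-fold. The interferon-gamma GTPases had medians of 1.58, 1.13 and 1.99, with 15, 9 and 15 of 16 past 2-fold. Ifit3 was at 7.37 and 240 CPM in the effector pair, 2.67 and 202 in the follicular pair and 7.75 and 163 in the resting pair. The effector list had medians of 1.35, -0.34 and 0.37. Of its 14 members 10, 2 and 3 were past 2-fold upwards, and 0, 3 and 2 downwards. Suppressive mediators had medians of 1.97, -0.64 and 0.95, with 8, 1 and 5 of 12 past 2-fold upwards and 0, 4 and 0 downwards. For the ST2 tissue Treg list the medians were 1.02, -0.90 and -0.23, with 3, 0 and 1 of 6 upwards and 0, 3 and 1 downwards. Icos was at 265 and 1163 CPM in the effector pair (2.13 [2.04, 2.23]), 253 and 320 in the follicular pair (0.34 [0.21, 0.47]) and 46.1 and 59.7 in the resting pair (0.37 [0.02, 0.74]). Tnfrsf9 was at 15.6 and 515 CPM in the effector pair (5.04 [4.70, 5.41]), but at 166 and 134 in the follicular pair (-0.31 [-0.50, -0.12]). Differences between pairs were not tested, since each rests on 1 library a side. Gzmb was at 11.6 and 3266 CPM, 2.67 and 22.2 CPM, and 0.86 and 11.05 CPM in the effector, follicular and resting pairs, the last from 2 and 32 UMIs. A Gzmb UMI was found in 3.87%, 2.64%, 2.34% and 2.52% of thinned cells in lymph node clusters 2, 1, 3 and 5. Free RNA in the droplets can give low shares like these and was not estimated, so the Gzmb values of the follicular and resting pairs are not read as expression. Ccl5 and Itga4 were lower in all, Itga4 by -3.26, -1.36 and -1.24. Klf2 was lower in the effector and resting pairs (-1.42 and -0.81) and higher in the follicular pair (164 and 268 CPM, 0.71 [0.55, 0.86]).

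**Figure D4:**
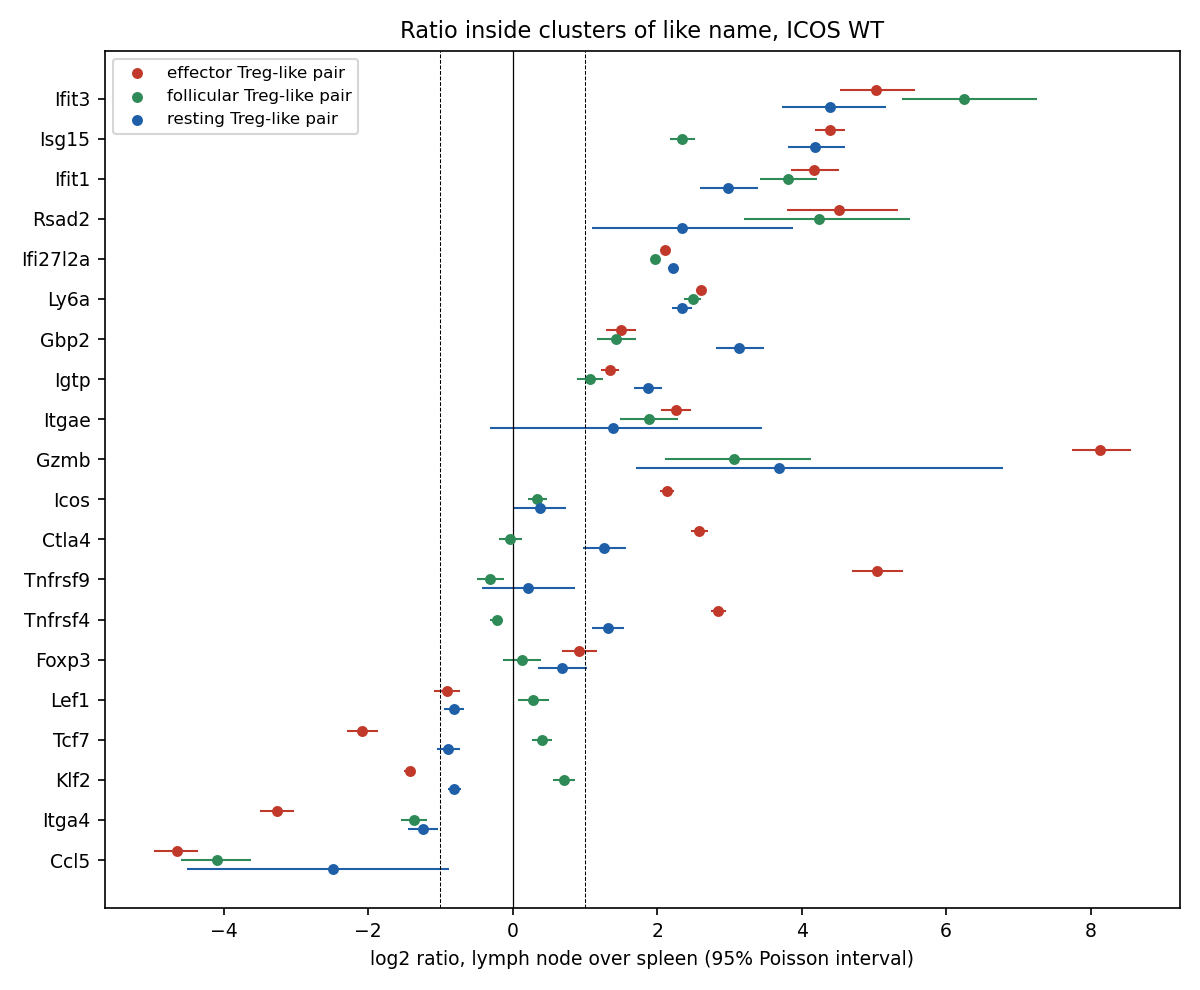
Log2 ratios, lymph node over spleen with 95% Poisson intervals (x axis), of 20 genes inside the effector, follicular and resting Treg-like cluster pairs of the ICOS WT libraries, with dashed lines at 2-fold. The interferon genes at the top lie past 2-fold in every pair, whereas Icos, Ctla4, Tnfrsf9 and Tnfrsf4 are highest in the effector pair and at 0.34 or below in the follicular pair. Icos, Itgae, Gzmb, Tnfrsf9, Tnfrsf4, Klf2, Lef1 and Tcf7 are among the markers used to name the clusters.

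The same comparison in the ICOS FC libraries, which share no library with it, gave 369 of 7047 genes higher (5.24%) and 45 lower (0.639%). Of the ICOS WT genes, 263 of the 337 higher (78.0%, and 71.3% of the ICOS FC list) and 19 of the 30 lower (63.3% and 42.2%) were in both. The sign was the same in the ICOS FC libraries for 335 of the 337 and for all 30. The share of all measured genes with the same sign in both comparisons was not taken. In the ICOS FC libraries Isg15 was at 76.0 and 600 CPM (2.98), Ifit3 at 15.6 and 150 CPM (3.27), Gbp2 at 49.0 and 221 CPM (2.17) and Ccl5 at 197 and 43.9 CPM (-2.16). Icos was at 258 and 928 CPM there (1.85): it was not lower than in the ICOS WT libraries, and a 3′ tag outside a deleted part would not show the deletion, so Icos does not check the genotype labels. Il10 had 6.87 and 17.9 CPM (1.39), beside 4.50 in ICOS WT. The 2 exceptions in sign were Fos and Fosb, subunits of the AP-1 factor. Fos was at 16.3 and 33.7 CPM in ICOS WT (1.05 [0.86, 1.24], under 2-fold with TMM factors at 0.89) and at 75.7 and 15.003 CPM in ICOS FC (-2.34).

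**Figure D5:**
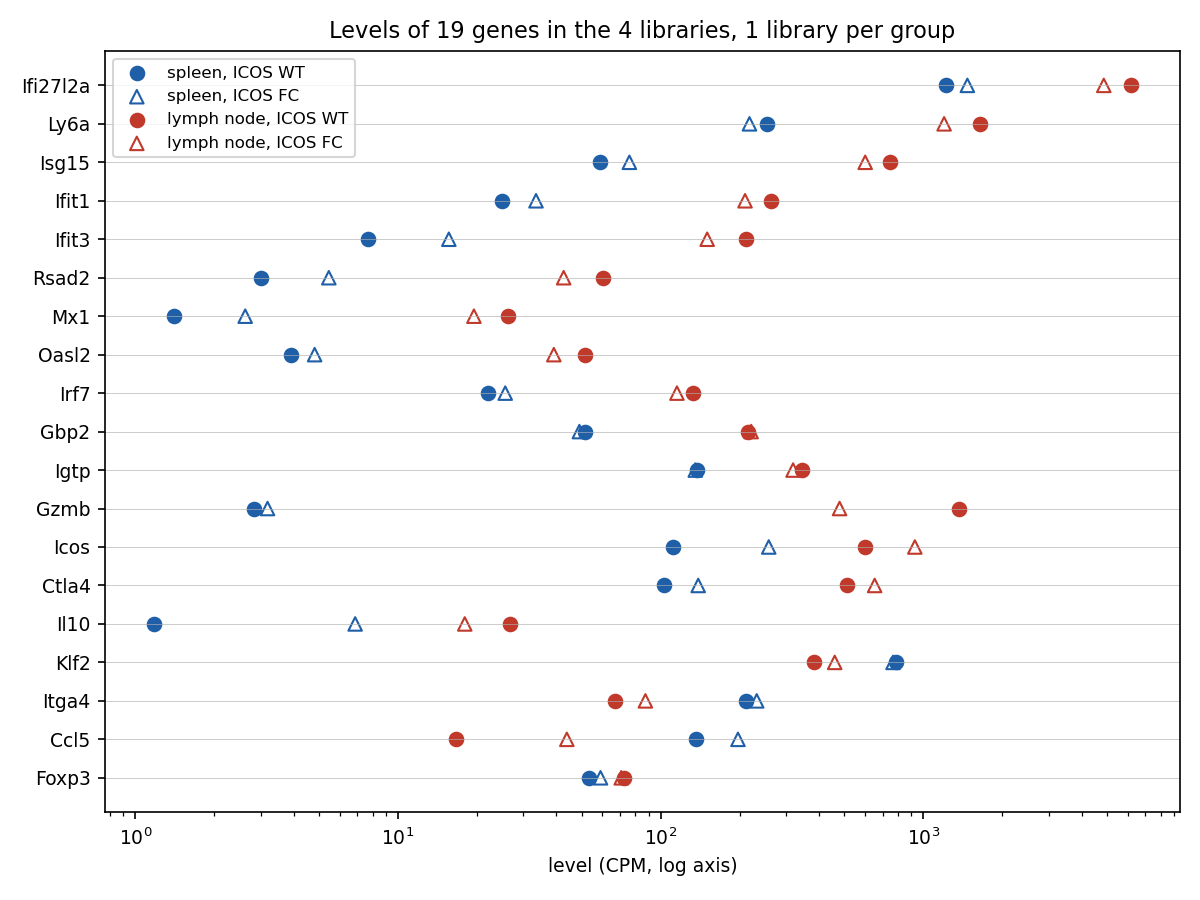
Levels of 19 genes in each of the 4 libraries, 1 library per group, in CPM on a log axis; circles are ICOS WT, triangles ICOS FC, blue spleen and red lymph node. The red and blue symbols stand apart on the same side for interferon genes, Gzmb, Icos and Ctla4 under both labels, on the other side for Klf2, Itga4 and Ccl5, and close together for Foxp3.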

How the data were processed

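Single-cell 3′ gene expression was measured in sorted Treg cells with 1 library per group. The submitters' processing notes name Seurat 3.0, R 3.6.1, Cell Ranger 4.0.0 and GRCm38.p6 (mm10) without roles; annotation and doublet removal are not stated, and no doublet caller was run here. Per their values, the deposited expression tables hold a natural log: 1 was added to each gene's UMIs scaled to a fixed total per cell. The deposited metadata give UMI counts per cell, mitochondrial percent (at most 9.99%), clusters, phase scores and genotype. The genotype entries Control and KO were read as ICOS WT and ICOS FC from the words alone. Cells with fewer than 500 UMIs are not in the deposited tables. Cell-cycle scores were not used.

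UMIs were recovered by inverting the log with each cell's deposited count; 100% of values came out whole within 0.001. They were summed per library and divided by its total. Log2 ratios carry exact conditional Poisson intervals, and shares of cells exact Clopper-Pearson intervals, both at 95% and for counting error only; UMIs of 1 cell are not independent, so intervals are too narrow for genes held by few cells. A gene was counted past a threshold of 2-fold with a mean of at least 10 CPM. The counting was tested on simulated counts. The members, the gene lists and the rules were chosen with earlier results of these data known; 4 lists (Ifitm, OAS, selectin ligand and nucleic acid sensor genes) and 1 alternative were added after the values were seen. Named genes were Icos, Foxp3, the 15 highest and 15 lowest by the interval bound nearest equality (leaving out mitochondrial, ribosomal, sex-linked and receptor-segment genes and Gm or Rik models), and list members among the top 4, past 2-fold or at a mean of 100 CPM or more; other named members are list genes or cell markers given for contrast, chosen after their values were seen. Gene positions are from GENCODE M21, which matched 337 of 338 named genes. Alternatives covered scaling (edgeR 4.0.16 TMM and DESeq2 1.42.0 size factors), cell filters, thinning, the level filter, the fold threshold and equal weighting of cluster pairs. Analyses ran in Python 3.11.15 with NumPy 2.4.6, SciPy 1.17.1 and pandas 2.3.3. Some list members are not reported here.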

Additional observations from a re-analysis of the deposited data

Results flagged for a closer look

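Fos and Fosb, immediate early genes of the AP-1 factor, stood out because they were past 2-fold in opposite directions under the 2 genotype labels. Fos had a log2 ratio, lymph node over spleen, of 1.05 in ICOS WT (16.3 and 33.7 CPM) and of -2.34 in ICOS FC (75.7 and 15.003 CPM). The ICOS WT ratio of Fos came under 2-fold when only cells holding a Foxp3 UMI were kept (0.53), when spleen cluster 4 and lymph node clusters 6 and 7 were left out (0.89), and with TMM factors (0.89), DESeq2 size factors (0.90) or a total that omits ribosomal and mitochondrial genes (0.87). Fosb had 1.51 in ICOS WT (9.93 and 28.4 CPM) and -2.14 in ICOS FC (29.3 and 6.64 CPM). With 1 library per group the difference was not tested. In both genes the ICOS FC spleen library held the highest level of the 4. Jun (82.5 and 102 CPM in ICOS WT, 185 and 55.2 CPM in ICOS FC) and Junb (314 and 421 CPM, 617 and 335 CPM) were highest in the same library.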

How the results depend on the processing

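No paired analysis was possible because each group is 1 library and its number only names it. The main counts of 337 genes higher and 30 lower in ICOS WT stayed within 1.5 times for the higher genes in 12 alternatives (249 to 363). The lower genes came to 54 with TMM factors, 53 with DESeq2 size factors, 76 without ribosomal and mitochondrial genes in the total, 18 with every cell weighted equally and 17 without cells holding a Mki67 or Top2a UMI. Weighting the 3 like-named cluster pairs equally gave 205 higher. With no minimum level there were 1591 higher and 405 lower, at 1.5-fold 796 and 139, and at 3-fold 143 and 3. In ICOS FC, against 369 and 45, the lower genes came to 77 with TMM factors, 74 with DESeq2 size factors, 110 without ribosomal and mitochondrial genes in the total and 95 in cells with a Foxp3 UMI. Leaving out cells with a Mki67 or Top2a UMI gave 239 and 29 there, no minimum level 1564 and 553, 1.5-fold 956 and 230, 3-fold 154 and 12, and equal cluster pairs 220 higher. Of 136 named genes past 2-fold, 96 to 135 stayed past it in the same direction across 12 alternatives. Without cells holding a Mki67 or Top2a UMI, the log2 ratio turned negative for Birc5 (-0.52), Ube2c (-0.44), Stmn1 (-1.39), Gins2 (-0.032), Mcm7 (-0.031), Tyms (-0.14) and Dut (-0.039); this alternative removes cells by genes of the same program. The other causes were not tested. The interferon response-like pair was not run, since the spleen side has 47 cells. The type I interferon median stayed between 2.26 and 2.63 over the alternatives for cells and scaling. Other list medians moved more when spleen cluster 4 and lymph node clusters 6 and 7 were left out. Treg identity came to 0.70 (0.95 pooled), and resting and homing genes to -0.43 (-0.66 pooled). Effector Treg genes came to 1.25 (1.46 pooled) and suppressive mediators to 1.48 (1.75 pooled). Depth limits rare genes: Ifitm1 had 0 spleen UMIs, which allows up to 0.110 CPM.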

Other observations

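Genes outside the lists above followed the interferon block, chosen here after their values were seen. Ifitm1, Ifitm2 and Ifitm3, membrane proteins that block virus entry, were all higher in the lymph node, with the reservation that near-identical copies can exchange reads. Ifitm1 had 0 UMIs in the ICOS WT spleen and 1330 in the lymph node (88.4 CPM), at least 801-fold higher against 3 counts. These UMIs lay in 32 cells (1.69%), and 1 cell held 435 of them. Lymph node cluster 7, with Cd8a at 174 CPM, held 41.5% of them, and without clusters 6 and 7 and spleen cluster 4 the log2 bound was 8.71. Ifitm3 was broader, at 3.27 and 113 CPM (5.11 [4.81, 5.44]) in 1.28% and 14.1% of cells, and Ifitm2 was at 10.5 and 131 CPM (3.64 [3.46, 3.83]). The OAS genes, sensors of double-stranded RNA, were led by Oas2 (0.92 and 19.4 CPM, 4.40 [3.81, 5.05]) and Oasl2 (3.90 and 51.6 CPM, 3.73 [3.43, 4.03]). Of the cytosolic RNA and DNA sensors, Zbp1 was at 75.1 and 323 CPM (2.11 [2.03, 2.18]) and Ifih1 (MDA5) at 12.8 and 54.0 CPM (2.08 [1.90, 2.27]), whereas Tmem173 (STING) was at 97.3 and 134 CPM (0.46 [0.38, 0.54]).

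Enzymes that build selectin ligands, the sugars by which T cells roll on skin vessels, were split. Gcnt1 was at 2.35 and 45.1 CPM (4.26 [3.89, 4.65]) and Fut7 at 2.61 and 21.1 CPM (3.02 [2.64, 3.41]), in 17.0% and 10.0% of lymph node cells. St3gal4 (14.8 and 19.7 CPM, 0.42), B4galt1 (54.7 and 63.9 CPM, 0.22) and their protein carrier Selplg (PSGL-1; 322 and 421 CPM, 0.38) differed by less than 2-fold. Havcr2, which encodes the inhibitory receptor TIM-3, lay under the level filter, with 7 UMIs in the spleen and 266 in the lymph node (0.26 and 17.7 CPM).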
